A study of Mus musculus with 4 samples.

Results

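The 7 genes described here are Oog1, Oog2, Oog3, Oog4, Pramel6, Pramel7 and Pramef12, the listed oogenesin and PRAME-like genes of the mouse. They were chosen by name, not by their values, by matching the Ensembl identifiers of the count table to the symbols of GENCODE release M21. All 7 had counts, out of 53715 rows in the table, and all 7 passed the low-count filter. They belong to a family of 52 genes in the table that carry an Oog, Pramel, Pramef or Prame symbol in GENCODE or in RefSeq, where Pramef12 is now called Pramel13.

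The libraries came from whole mouse embryos at the 2-cell stage, strain C57BL/DBA2. Zygotes taken from the oviduct were injected with an siRNA at 20 μM and cultured in KSOM, an embryo culture medium. The 2 control libraries received siNC, the control siRNA, and the 2 knockdown libraries received one against SPENH0335, which the title of the series presents as an enhancer-derived RNA. The table has no row named for SPENH0335, so the size of its knockdown was not measured here. The number of embryos behind each library, and any separate collection of the replicates, are facts not given in the sources used here. Thus p-values weigh the difference between the groups only against how far libraries of 1 group lie apart, and that distance may be technical.

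PRAME family proteins are built largely of leucine-rich repeats, and human PRAME is known as an antigen of tumours and testis and as a substrate receptor of a cullin 2 ubiquitin ligase. In the mouse the family has expanded into large clusters, many of whose genes are transcribed in oocytes, early embryos or testis. The oogenesins were named for their expression in oocytes and early embryos. Pramel6 and Pramel7 are known from preimplantation embryos and embryonic stem cells, where Pramel7 has been tied to the degradation of the DNA methylation factor UHRF1. Pramef12 is known from the male germ line.

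Total counts per library lay between 78865491 and 99011109. Of the marker genes of the embryo, 16 of 16 listed oocyte genes and 16 of 16 listed 2-cell genes passed the low-count filter. So did 15 of 19 listed markers of cumulus and granulosa cells, 11 of 15 of sperm and 11 of 13 of blood, oviduct and stroma. Markers of cumulus and granulosa cells summed to between 80.2 and 93.0 CPM (the usual count of a gene relative to its library's total, with TMM scaling between libraries). Only 2 of them, Inha and Ereg, had 0 counts in all libraries. Sperm markers summed to between 11.97 and 20.9 CPM, with only Smcp and Gapdhs at 0. Markers of blood, oviduct and stroma summed to between 96.5 and 127 CPM, with only Col3a1 and Hbb-bs at 0. In such bulk samples, fewer cells of a type and less RNA per cell cannot be told apart.

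The upstream sequences of the 7 genes are given first, because they show which of the genes are alike upstream. Promoters were taken from RefSeq on GRCm38.p6, as the 250 bases before each gene's start. The windows printed run up to 90 bases before the RefSeq start, less any base that M21 annotates as exon, and read 5′ to 3′ on the gene's strand. They lie at chr12:87602575-87602664 (plus strand) for Oog1, chr4:144190627-144190716 (plus) for Oog2, chr4:144162664-144162741 (minus) for Oog3, chr4:143450325-143450414 (minus) for Oog4, chr2:87506475-87506564 (plus) for Pramel6 and chr4:144408465-144408554 (minus) for Pramef12. Capitals mark a block of 18 bases, GGGTGTNGCNACAAAGGG, where N is any base. It is the longest stretch without a gap in which at most 2 positions vary between Oog1, Oog2, Oog3, Oog4 and Pramel6, a choice of genes made after these sequences had been read.
Oog1: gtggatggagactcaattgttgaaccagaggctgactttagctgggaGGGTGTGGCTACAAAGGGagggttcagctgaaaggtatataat
Oog2: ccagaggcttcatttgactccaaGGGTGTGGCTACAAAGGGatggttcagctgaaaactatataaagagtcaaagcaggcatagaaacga
Oog3: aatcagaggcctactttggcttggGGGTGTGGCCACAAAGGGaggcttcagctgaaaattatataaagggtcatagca
Oog4: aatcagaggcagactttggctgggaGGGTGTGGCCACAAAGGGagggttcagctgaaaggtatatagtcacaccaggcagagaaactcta
Pramel6: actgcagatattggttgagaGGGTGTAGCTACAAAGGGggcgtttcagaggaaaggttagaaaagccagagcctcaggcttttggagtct
Pramef12: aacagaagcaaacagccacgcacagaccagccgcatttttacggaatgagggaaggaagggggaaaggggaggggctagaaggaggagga

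The 4 oogenesins and Pramel6 carry the block, and Pramef12 has no exact match to it. In Oog1, Oog2, Oog3, Oog4 and Pramel6 it begins 66, 69, 54, 65 and 70 bases before the M21 start of the gene. Pramel7 also has no match in its 250 bases, but its RefSeq start lies inside the longer M21 gene model, and the window is not printed. Searched on both strands, the block occurred in 10 of 32851 RefSeq promoters, of which 5 are the promoters it was built from. Of the other 32846 promoters, 5 held it. These were 4 of the 38 other family promoters (10.5%), those of Pramel25, Pramel26, Pramel27 and Pramel29, and that of Gm2042, a gene described below as a near copy of Oog1.

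Downstream of the block, the 4 oogenesins also share CAGCTG, an E-box, and then TATATA, which begins 31, 34, 19 and 30 bases before the M21 start in Oog1, Oog2, Oog3 and Oog4. Neither CAGCTG nor TATATA occurs in the 250 bases of Pramel6, Pramel7 or Pramef12. The wider E-box pattern CANNTG, where N is any base, occurs in all 7 genes, in 66.22% of all promoters and in 86.05% of family promoters. CAGCTG is in 13.0% and TATATA in 5.25% of all promoters of that length, searched on both strands, and in 23.26 and 48.84% of the 43 family promoters. TATATA is thus common in the family. TATATA can overlap the TATA box TATAAA, which Oog2 and Oog3 hold. TAATTG, an element bound by the oocyte homeobox factor NOBOX, was found in Oog3, Oog4 and Pramef12, in 30.23% of family promoters and in 7.17% of all promoters. GGATTA, a site of paired-like homeobox factors, and TGATTG, an element of the oocyte factor LHX8, had no match in the 7 genes. These motifs occurred in 6.25 and 12.68% of all promoters and in 11.63 and 20.93% of family promoters. CG pairs were scarce: 1 to 2 in 6 of the genes and 6 in Pramef12, against a mean of 9.86 over all promoters and of 1.72 over the family. A match to letters is a description and does not show that a factor binds.

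The levels of the 7 genes spanned more than 2 orders of magnitude. Levels of different genes are compared per length, as TMM-scaled CPM per kilobase of merged exons, and given as the mean of the 4 libraries with the lowest and highest library. Oog3 stood first at 1859 CPM per kb (1729 to 2038), and Oog1 followed at 852 (775 to 910). Both lay clear of every other listed gene in every library.

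Oog2 was at 189 CPM per kb (168 to 213) and Oog4 at 156 (111 to 206), so these neighbours in the order overlapped, although Oog2 was the higher in each library, by a factor of 1.03 to 1.52 per kb. Pramef12 was at 38.96 (35.8 to 42.96), clear of the genes above and below it. Pramel7 at 5.002 (3.30 to 7.40) and Pramel6 at 4.89 (4.03 to 6.85) also overlapped and cannot be put in order. By CPM without regard to length, Oog3 ranked 10 and Oog1 ranked 30 among all genes of the table, while Pramel7 and Pramel6 ranked 7991 and 8130.

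**Figure D1:**
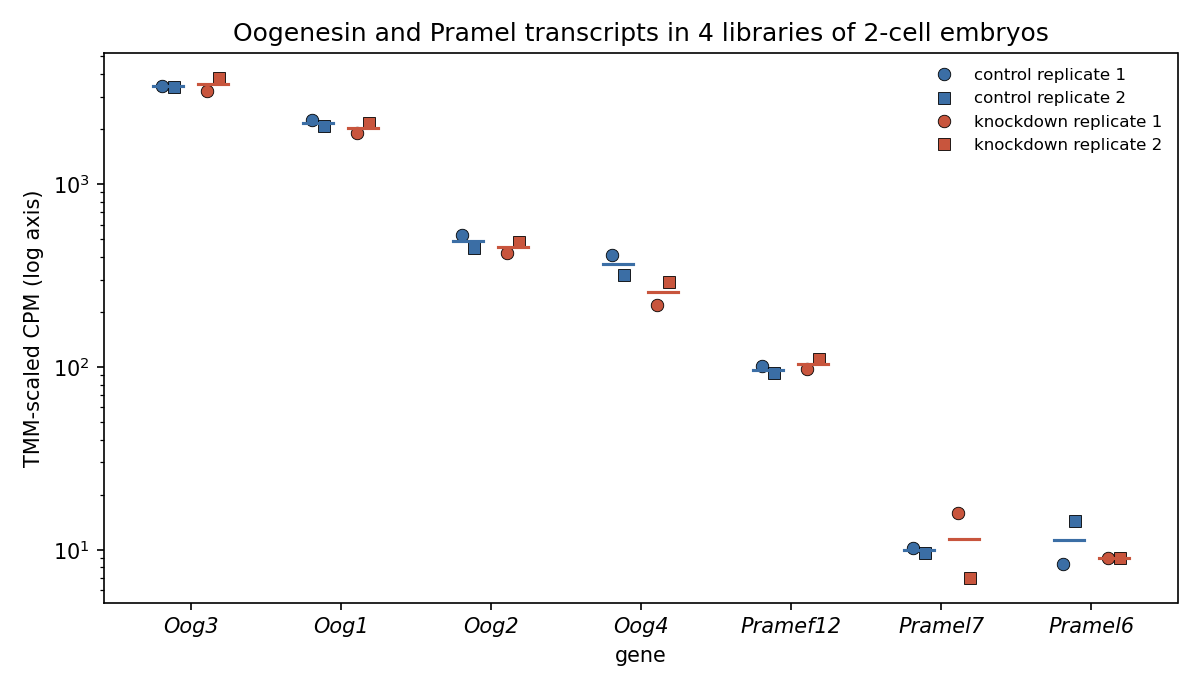
Level of each of the 7 genes in each library, as TMM-scaled CPM on a log axis. Circles are replicate 1 and squares replicate 2 of control (blue) and knockdown (red), and short lines are the means of 2 libraries; Oog3 lies between 3224 and 3801 CPM, and Oog4 is the gene whose groups do not overlap.

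Together the 7 genes summed to 6719 and 6357 CPM in the control libraries and to 5883 and 6856 CPM in the knockdown libraries. The lowest and the highest sum thus both came from knockdown embryos, and the control sums lay between them. The means were 6538 ± 255 CPM in control and 6370 ± 689 CPM in knockdown (SD, n = 2 each). Oog3 alone made up 51.1 and 53.6% of the sum in control and 54.8 and 55.4% in knockdown, and Oog1 between 31.4 and 33.2% in all libraries.

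The comparison the design allows asks which transcripts changed when SPENH0335 was knocked down. None of the 7 genes was called higher or lower (edgeR quasi-likelihood test over 25565 genes, Benjamini-Hochberg adjusted p 0.9999 for each). Over all genes tested, 0.0% were called higher and 0.0% lower at that threshold of 0.05. Before adjustment, 399 genes (1.56%) were higher with a p below 0.05 and 585 (2.29%) were lower, and of the 7 genes 0 were higher and 1, Oog4, was lower. DESeq2 called 20 genes higher and 33 lower, 0.144% of 36863 genes, and limma-voom called 0 in either direction. None of those DESeq2 calls was one of the 7 genes.

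Of the 7 log2 fold changes of knockdown over control, 3 were positive and 4 negative, and their median was -0.09. Over all genes tested, 12711 were positive and 12854 negative, and the median was -0.0025. Knockdown lay wholly below control for 1 of the 7 genes, Oog4, against 17.1% of all genes tested, and wholly above for 0 of the 7, against 15.6%. These shares do not set the listed genes apart from the rest.

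Oog3, an oogenesin on the minus strand of chromosome 4 (144157557 to 144162663, GRCm38), was at 3432 and 3409 CPM in control and at 3224 and 3801 CPM in knockdown. The control values were almost equal, and the knockdown values lay on either side of them. The log2 fold change was 0.04 (95% interval -0.20 to 0.28), so a fold change below 0.871 or above 1.21 lies outside the interval. Between replicates the log2 difference was -0.0098 in control and 0.24 in knockdown, and the SE that counting alone would give those differences was 0.0038 and 0.0035.

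Oog1, on the plus strand of chromosome 12 (87602688 to 87608850), was the gene for which the name oogenesin was coined and has been linked to Ras signalling. Its level was 2230 and 2069 CPM in control and 1899 and 2152 CPM in knockdown. The groups overlapped, since knockdown replicate 2 lay between the control libraries. The log2 fold change was -0.09 (95% interval -0.32 to 0.15).

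Oog2, on the plus strand of chromosome 4 (144190719 to 144196934), lies beside Oog3 and is transcribed on the opposite strand. It was at 528 and 444 CPM in control and 418 and 485 CPM in knockdown, with a log2 fold change of -0.11 (95% interval -0.43 to 0.22). The highest value came from control replicate 1 and the lowest from knockdown replicate 1, with the other two libraries between.

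Oog4 lies on the minus strand of chromosome 4 (143437164 to 143450324), at lower coordinates than Oog2 and Oog3. It was at 409 and 319 CPM in control and at 219 and 292 CPM in knockdown, means of 364 ± 63.2 and 256 ± 51.7 CPM (SD, n = 2 each). Both knockdown libraries were below both control libraries, but the gap between knockdown replicate 2 and control replicate 2 was smaller than the difference within either group. The log2 fold change was -0.51 (SE 0.19, 95% interval -0.98 to -0.04, unadjusted p 0.0384 and adjusted p 0.9999 in the edgeR quasi-likelihood test), beside log2 differences of -0.36 between the control replicates and 0.42 between the knockdown replicates. DESeq2 gave an adjusted p of 0.626. Without control replicate 1 the edgeR log2 fold change was -0.33 (unadjusted p 0.220) and without knockdown replicate 1 it was -0.32 (unadjusted p 0.0749). Without control replicate 2 it was -0.68 (unadjusted p 0.0307) and without knockdown replicate 2 it was -0.73 (unadjusted p 0.00345), and no adjusted p passed the threshold in any of these fits.

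Marker lists gave the following values beside that of Oog4. Of 16 oocyte markers, which include no PRAME family gene, 14 had a negative fold change, and for 10 of 16 knockdown lay wholly below control, against 17.1% of all genes tested. Their median log2 fold change was -0.17, and none passed the test. In the edgeR test 1 of 16, the oocyte growth factor gene Gdf9, was lower with an unadjusted p under 0.05, against 2.29% of all genes. The list summed to 6623 and 6593 CPM in control and 6010 and 6344 CPM in knockdown. For 16 markers of the 2-cell stage, 10 were positive and 6 negative, and none passed the test. In the edgeR test 3 were higher and 1 lower with an unadjusted p under 0.05, against 1.56 and 2.29% of all genes. Knockdown lay wholly above control for 4 of these 16 and wholly below for 3, against 15.6 and 17.1% of all genes tested. Their median was 0.12, with sums of 2149 and 2153 CPM in control and 2330 and 2474 CPM in knockdown. Among 11 tested markers of blood, oviduct and stroma, knockdown lay wholly below control for 6 and wholly above for 1. Among 11 of sperm it lay below for 5 and above for 2, and among 15 of cumulus and granulosa cells below for 3 and above for 1. The part of these differences in the value of Oog4 was not tested.

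**Figure D2:**
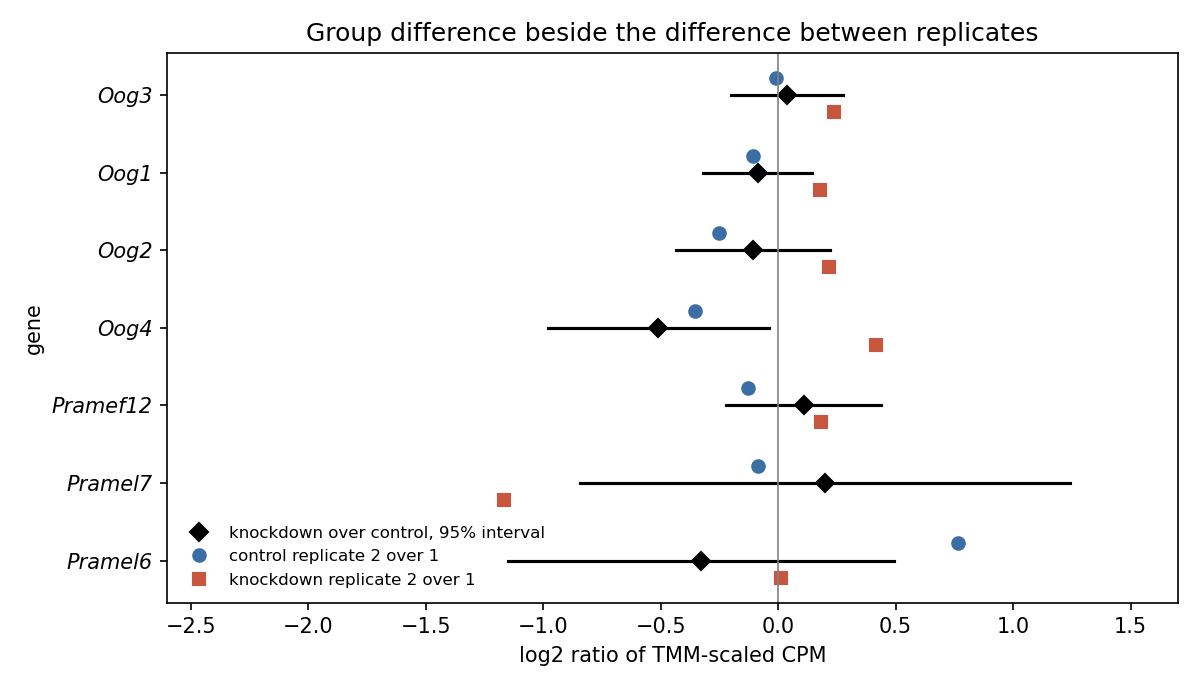
Log2 ratios of TMM-scaled CPM for each gene: diamonds are knockdown over control with the 95% interval of the edgeR fit (lines), blue circles are control replicate 2 over replicate 1, and red squares are knockdown replicate 2 over replicate 1. The interval of Oog4, from -0.98 to -0.04, is the only interval of the 7 that does not include 0, and the knockdown replicates of Pramel7 differ by -1.17.

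Among the PRAME-like genes, Pramef12 on chromosome 4 (144391674 to 144408464, minus strand) was at 101 and 92.1 CPM in control and 97.5 and 111 CPM in knockdown. The groups overlapped, and the log2 fold change was 0.11 (95% interval -0.22 to 0.44). An annotated antisense gene, Pramef12os, overlaps it and had at most 47 counts in a library. The strand setting of the counting was not given in the sources used here, so reads of this pair could not be told apart by strand.

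Pramel6 and Pramel7 lie next to each other on chromosome 2 (87506565 to 87510872, plus strand, and 87489087 to 87497093, minus strand). Pramel6 was at 8.40 and 14.3 CPM in control and 8.99 and 9.06 CPM in knockdown. Control replicate 2 stood above the other 3 libraries, which were close together. Pramel7 was at 10.2 and 9.64 CPM in control and 15.8 and 7.04 CPM in knockdown. Here the knockdown replicates were the highest and the lowest of the 4.

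Their log2 fold changes were -0.33 for Pramel6 (95% interval -1.15 to 0.49) and 0.20 for Pramel7 (95% interval -0.84 to 1.24). For Pramel7 the interval runs from 0.557-fold to 2.37-fold, so a doubling could not be told from no change. Counts of these genes lay between 661 and 1524 per library. Counting alone would give the log2 difference of the Pramel7 knockdown replicates an SE of 0.067, against a measured difference of -1.17. The ratio of Pramel6 to Pramel7 per kb ran from 0.583 in knockdown replicate 1 to 1.52 in control replicate 2 and was on both sides of 1 in each group.

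The spread between replicates can be set beside that of other genes. For the 2111 genes with a mean over 100 CPM, replicates differed by a median absolute log2 value of 0.07 in control and 0.19 in knockdown. The 4 oogenesins and Pramef12 were all higher in knockdown replicate 2 than in knockdown replicate 1, by log2 differences of 0.18 to 0.42, and all were lower in control replicate 2 than in control replicate 1, by -0.36 to -0.0098. Pramel6 and Pramel7 did not follow this order. For the 4388 genes with a mean from 5 to 20 CPM, the median absolute differences were 0.26 in control and 0.39 in knockdown. Pramel6 replicates differed by 0.76 in control and 0.011 in knockdown, and Pramel7 replicates by -0.088 in control and -1.17 in knockdown. In size, Pramel6 was thus above the median in control and below it in knockdown, and Pramel7 the reverse.

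The profiles of the genes over the 4 libraries were compared by the root mean square difference of log2 CPM after centring each gene on its mean. Closest to Oog3 among the 8184 genes that averaged 10 CPM or more were Sin3a, which encodes a corepressor scaffold, at 0.0051, Dhtkd1, a mitochondrial dehydrogenase subunit gene, at 0.0059, and Zcchc17 at 0.0075. With so few libraries a close match is common, and 375 genes lay within 0.05 of Oog3. Among the listed genes, Pramef12 was at 0.060 and Oog1 at 0.073 from Oog3, while Oog4 was at 0.31 and Pramel7 at 0.50. Oog1 and Oog2 were 0.052 apart.

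How far single values can be trusted depends on how much sequence the genes share, since the handling of reads that fit several genes was not given in the sources used here. Each gene's longest coding sequence in M21 was aligned with those of the others. Identity was 81.5% between Oog1 and Oog3, 80.7% between Oog2 and Oog3, 79.01% between Oog1 and Oog4, and 75.6% between Oog3 and Oog4. Pramel6 and Pramel7, though neighbours, were 60.8% identical, and Pramel6 was closer to Oog4 at 66.9%. The genes with closer sequences lie outside the list for all but Oog4, whose closest family gene by coding identity was Oog1.

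Every stretch of 50 bases in the M21 transcripts of each gene was looked up in the transcripts of all other genes. For Oog1, 89.0% of such words occurred in another gene, for Oog2 33.4% and for Oog3 19.7%. For Oog4 the share was 0.71% and for Pramel7 1.43%, and no word of Pramef12 or Pramel6 was shared. With words of 100 bases, Oog1 still shared 78.0%, Oog2 16.1% and Oog3 10.8%, and the other 4 shared 0%. Reads of Oog4 could thus be placed almost everywhere in its transcripts, while most of Oog1 could not be told from its copies by reads of these lengths.

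**Figure D3:**
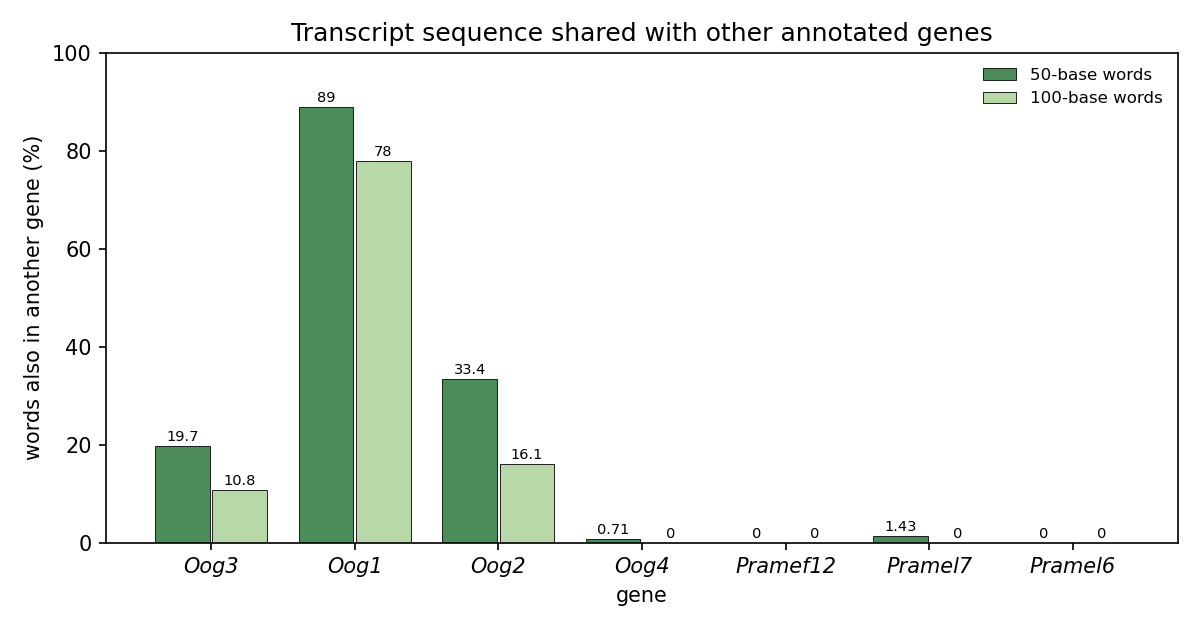
Share of all 50-base (dark) and 100-base (light) words of each gene's transcripts that also occur in a transcript of another annotated gene, in percent. Oog1 stands at 89.0 and 78.0%, Oog2 and Oog3 between 10.8 and 33.4%, and the other 4 genes at or below 1.43%.

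The gene that shares most with Oog1 is Gm2042, also on chromosome 12, which holds 85.8% of its 50-base words. Gm2042 was at 2471 and 2250 CPM in control and 2098 and 2304 CPM in knockdown, close to the values of Oog1 in every library. Gm10436, named Pramel51 in RefSeq, holds 58.6% of the words and was at 2078 and 1930 CPM in control and 1808 and 1800 CPM in knockdown. Gm13023, or Pramel25, on chromosome 4 holds 14.5%, and C87977, or Pramel29, holds 17.1%.

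For Oog2 the near copy is Gm13084, or Pramel26, with 30.1% of the words, at 827 and 707 CPM in control and 605 and 792 CPM in knockdown. For Oog3 it is Gm4350, a processed pseudogene on chromosome 14 with 18.9% of the words and 62.9 and 62.5 CPM in control and 63.5 and 79.7 CPM in knockdown. Summed with the genes that hold at least 10% of their words, Oog1 with 4 such genes went from 8559 ± 570 CPM in control to 7865 ± 516 CPM in knockdown (SD, n = 2 each), and Oog2 with 1 from 1253 ± 145 to 1149 ± 179 CPM. Both groups overlapped. The log2 ratios of these sums were -0.12 for Oog1, -0.12 for Oog2 and 0.04 for Oog3, beside -0.09, -0.11 and 0.04 for the single genes. Each sum includes the gene itself, and reads that fit several of its genes may be counted more than once or not at all.

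The stretches below show how little separates Oog1 and Oog2 from the family gene closest to each in coding sequence. For each pair they are the 60 aligned coding bases without a gap that hold the most differences, in capitals where the pair differs. Gm2042, which holds more words of Oog1 than Gm13023 does, has no family symbol and was not aligned. Oog1 and Gm13023, with 96.4% identity over 1491 aligned bases, differ at 8 of the 60 bases that run from coding base 373 to 432 in both. Oog2 and Gm13084, with 98.5% identity over 1431 aligned bases, differ at no more than 3 of 60 bases, from base 1 to 60 of Oog2 and base 55 to 114 of Gm13084.
Oog1: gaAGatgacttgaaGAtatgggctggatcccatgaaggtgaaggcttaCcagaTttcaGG
Gm13023: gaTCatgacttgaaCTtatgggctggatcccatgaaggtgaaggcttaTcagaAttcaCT
Oog2: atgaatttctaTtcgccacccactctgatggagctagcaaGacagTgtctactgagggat
Gm13084: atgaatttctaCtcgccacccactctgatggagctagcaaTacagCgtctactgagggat

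The rest of the family gives a frame for these values. The 52 family genes took between 1.29 and 1.48% of all counts of a library, of which the 7 listed genes took 0.603 to 0.678%. Family membership was read from symbols, so the family share leaves out Gm2042, the near copy of Oog1. Of the 45 other family genes, 44 were tested, with 23 above and 21 below 0 and a median log2 fold change of 0.02. None passed the test, 1 (Gm13083, or Pramel21, named after its value was seen) was higher with an unadjusted p under 0.05, and the groups did not overlap for 4 higher and 3 lower. Over all genes tested these shares were 1.56, 15.6 and 17.1%, so both non-overlap counts were below the background, and 1 gene in 44 at that p is near it. By chromosome, 27 family genes lie on chromosome 4, 18 on chromosome 5, 3 on chromosome X and 2 each on chromosomes 2 and 12.

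The most abundant genes with a family symbol outside the list were Gm10436, Gm13023, Gm13084, Gm13103, C87414 and C87977. Gm2042, the near copy of Oog1 without such a symbol, stood above them, with means of 2360 CPM in control and 2201 CPM in knockdown. Gm10436, at a mean of 1904 CPM over the 4 libraries, had both knockdown libraries below both control libraries, with a log2 fold change of -0.15 (95% interval -0.34 to 0.04). Gm13023 was at a mean of 1396 CPM and Gm13084 at 733 CPM. Gm13103, the family gene closest in sequence to Oog3 with 89.5% identity, was at 703 CPM with a log2 fold change of 0.02. C87414 was at 700 CPM and C87977 at 544 CPM, with log2 fold changes of 0.09 and -0.26. Across the 6 genes with a family symbol the log2 fold changes stayed between -0.26 and 0.09, and the intervals of all 6 included 0.

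The promoter block described above can be set beside the levels of the 43 family genes that have a RefSeq promoter. The 5 genes from which the block was built carry it by construction, and they include 4 of the 9 highest, Oog1 to Oog4, as well as Pramel6 at rank 27. The 4 other genes with the block, Gm13023, Gm13103, Gm13084 and C87977, lay between 183 and 771 CPM per kb, also among the 9 highest. The 34 genes without an exact match had a median of 4.95 CPM per kb (0.019 to 235), and the highest of them, C87499, or Pramel32, was at rank 6. Gm10436 and C87414, at 640 and 236 CPM per kb, have no promoter among the 43, so whether they carry the block was not read. Both lie above C87499 in level, so the ranks given here hold only among the 43. Genes with the block include near copies that may share reads, such as Oog1 with Gm13023 and Oog2 with Gm13084, so they are not independent points, and the order is given without a test.

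**Figure D4:**
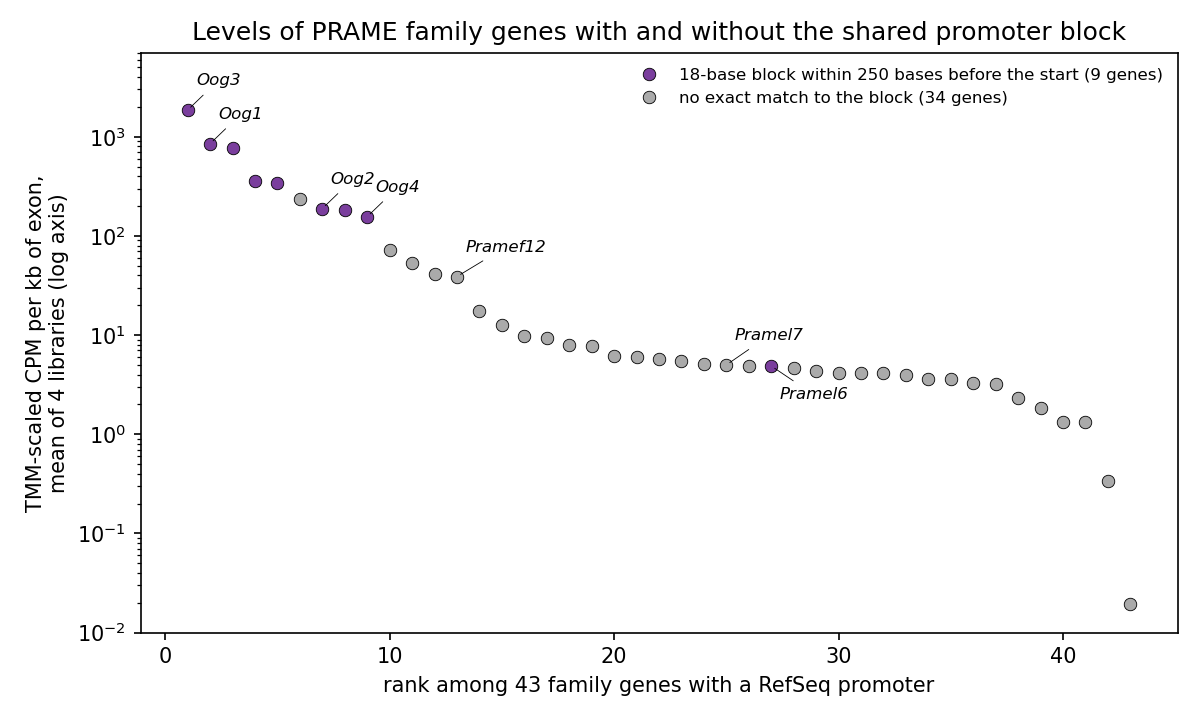
Mean level over the 4 libraries of 43 PRAME family genes with a RefSeq promoter, in TMM-scaled CPM per kb on a log axis, ranked from high to low, with the listed genes named. Genes whose 250 upstream bases hold the 18-base block (purple, 9 genes) fill 8 of the 9 highest ranks among these 43, with Pramel6 at rank 27. Of the 9 purple genes, 5, Oog1 to Oog4 and Pramel6, carry it by construction, and the 34 genes without it are grey. Gm10436 and C87414, at 640 and 236 CPM per kb, have no promoter among the 43 and are not shown.

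Partners of the family were read from lists of other genes. The cullin 2 ubiquitin ligase list, with the scaffold Cul2, the elongins and other substrate receptors, had 8 of 17 genes with a positive and 9 with a negative fold change, a median log2 fold change of -0.03 and none that passed the test. Cul2 itself was at 32.7 and 37.8 CPM in control and 43.3 and 39.6 CPM in knockdown, and Rbx1, its RING partner, at 325 and 372 CPM in control and 371 and 393 CPM in knockdown. The smallest p values of the list belonged to the substrate receptor Zyg11a, at 1.29 and 2.74 CPM in control and 0.860 and 0.277 CPM in knockdown, and to Eloc, which encodes elongin C, at 215 and 182 CPM in control and 182 and 150 CPM in knockdown. Elob, the gene of elongin B, was at 11.2 and 15.97 CPM in control and 15.6 and 7.26 CPM in knockdown.

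The DNA methylation list had 5 of 10 genes above and 5 below 0, a median of -0.03 and none that passed the test. Uhrf1, the gene of the protein tied to Pramel7, was at 257 and 248 CPM in control and 235 and 326 CPM in knockdown, so the groups overlapped. Tet3, the oxidase of methylated cytosine in the zygote, was at 203 and 187 CPM in control and 167 and 612 CPM in knockdown. Knockdown replicate 2 alone stood high, and the log2 fold change of Tet3 was 1.00 (95% interval -0.40 to 2.40). Uhrf2, a paralogue of Uhrf1, was at 7.49 and 9.26 CPM in control and 6.43 and 6.07 CPM in knockdown. Cul2, Rbx1, Elob and Uhrf1, and Nras below, are named for their roles, outside the rule for naming genes and with their values known.

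Of 8 genes that encode oocyte transcription factors or oocyte control genes, 4 had a positive and 4 a negative fold change, and the median was -0.01. None passed the test, and Gdf9, at 387 and 369 CPM in control and 273 and 299 CPM in knockdown, had an unadjusted p of 0.00891 (adjusted p 0.9999 in the edgeR test). Foxo3, a forkhead factor of the resting oocyte, was at 361 and 402 CPM in control and 431 and 442 CPM in knockdown. Of 8 Ras and Ral genes, 2 were positive and 6 negative, the median was -0.19 and none passed. Ralb was at 2.01 and 0.871 CPM in control and 0.694 and 0.575 CPM in knockdown, and Hras at 6.67 and 4.56 CPM in control and 4.34 and 2.95 CPM in knockdown. Per kb of exon, the means over the 4 libraries were 0.210 CPM for Ralb, 1.24 for Hras and 96.2 for Nras.

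The nearest tested protein-coding genes outside the family, by symbol, were read on each side of the listed genes. None had an unadjusted p under 0.05. On the side of Oog4 with the lower coordinates, 137600 bases away, Pdpn, which encodes podoplanin, was at 64.9 and 63.3 CPM in control and 66.8 and 84.5 CPM in knockdown, so it did not share the direction of Oog4. Next to Oog1, 10019 bases away, Gm4027 was at 72.6 and 72.2 CPM in control and 82.6 and 75.7 CPM in knockdown. Olfr153, an olfactory receptor gene 20924 bases from Pramel6, reached at most 0.510 CPM in a library, and Aadacl3, 45307 bases from Pramef12, at most 0.309 CPM. The other neighbours were Gm8300, Gm13043, Gm13102 and Olfr1104, with mean levels of 63.7, 10.2, 7.31 and 25.1 CPM over the 4 libraries. A symbol does not show that a neighbour is unrelated to the family. Of the 50-base words of the family gene Pramel4, 87.4% occurred in another gene, most often in Gm13102.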

How the data were processed

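Poly(A) RNA of 4 libraries was sequenced from pre-amplified cDNA, per the labels' protocols. The table's values are whole numbers and were deposited as counts per gene, with no normalization by the authors as judged from these values. CASAVA 1.8, Trim Galore 0.6.5, also HISAT2 2.1.0, along with Picard 2.18.2, on build mm10, appear in the submitters' processing notes with no role stated; the counting tool, annotation and strand setting were not given in the sources used here. No molecular identifiers are named, so counting errors cover counting only.

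Of 53715 rows, 53620 matched GENCODE M21 (GRCm38) by Ensembl ID without version. Genes were filtered by filterByExpr (minimum 10 counts), scaled by TMM (the trimmed mean of M-values) and tested with edgeR 4.0.16 in R 4.3.3 (quasi-likelihood F-test, two-sided, group only, threshold 0.05 after Benjamini-Hochberg adjustment). Each SE equals the size of the log2 fold change over the root of F. The test was checked on simulated data. Alternatives were DESeq2 1.42.0, limma-voom 3.58.1, RLE scaling, other filters, a replicate block and leaving out each library. No pair of libraries was near-identical (smallest chi-square 30.9 per degree of freedom).

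The 7 genes and the lists were chosen with earlier results of these data known. Names outside the 7 followed a rule: the 6 most abundant other family genes, the 2 smallest p of each list, the 3 profiles nearest to the most abundant gene and the nearest neighbours.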

Additional observations from a re-analysis of the deposited data

How the results depend on the processing

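Over all genes, edgeR called 0 higher and 0 lower; DESeq2 called 20 higher and 33 lower, and the fit with the replicate block called 0 and 0. Leaving out each library in turn gave 0 to 2 higher and 0 to 1 lower. No alternative called any of the 7 genes. The replicate numbers do not pair the libraries by any label, and the differences of replicate 1 and 2 correlated at -0.019 between the groups, across genes; with the block, Oog4 was at -0.51 (unadjusted p 0.0511).

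Oog4 and Pramef12 kept their direction in all 10 alternatives each. The other directions rest on single libraries: leaving out each library gave log2 fold changes of -0.17 to 0.0023 for Oog1 (turned without knockdown replicate 1), -0.23 to 0.020 for Oog2 (without control replicate 1), -0.080 to 0.15 for Oog3 (without knockdown replicate 2), -0.66 to 0.10 for Pramel6 (without control replicate 2) and -0.50 to 0.67 for Pramel7 (without knockdown replicate 1). For Oog4 they were -0.73 to -0.32. The log2 ratio of the summed level, -0.04, ran from -0.15 to 0.07. Counting the near copies together, an alternative added after seeing the data, turned no direction. Each such sum includes the gene itself and may count shared reads more than once, so a like direction was partly built in. Among the 7 genes, counting error was largest for Pramel6 and Pramel7, with 661 to 1524 counts a library. The SE it gave a log2 difference between replicates was at most 0.071. The measured differences reached 0.76 between the Pramel6 control replicates and -1.17 between the Pramel7 knockdown replicates. They were only 0.011 between the Pramel6 knockdown replicates and -0.088 between the Pramel7 control replicates.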
